A study of Mus musculus with 32 samples.

Results

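The genes of Wnt signalling were examined across the cytokine responses of cultured lung endothelial cells (ECs) with and without silencing of Dnmt1. The members were the rows of the merged count table whose symbol is a Wnt ligand, a Frizzled (Fzd) receptor, a Dickkopf (Dkk) or Sfrp antagonist, an R-spondin (Rspo) or an Lgr R-spondin receptor, together with the named genes Lrp5, Lrp6, Lef1, Tcf7, Tcf7l1, Tcf7l2, Axin1, Axin2, Ctnnb1, Znrf3 and Rnf43. This gave 55 genes of the 54429 symbols in the table, chosen by symbol. Of the 55 members, 28 had enough counts to be tested, 11 were low, and 16 held 3 counts or fewer in each of 32 libraries.

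Bulk RNA-seq was carried out on Veravec cells, a mouse lung EC line, so all groups are 1 cell line in culture. The siRNA was either a control (si-control) or directed at Dnmt1 (si-dnmt), the enzyme that copies DNA methylation onto new DNA strands. Each siRNA was followed by no cytokine, by TNF (TNFα, 10 ng/mL), by IFN (IFNγ, 1000 U/mL) or by TNF + IFN, the cytokines for 16 h. The 8 groups, named si-control, si-control + TNF, si-control + IFN, si-control + TNF + IFN, si-dnmt, si-dnmt + TNF, si-dnmt + IFN and si-dnmt + TNF + IFN, held 4 replicates each.

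In canonical Wnt signalling, a secreted Wnt protein binds a Frizzled receptor and the co-receptor Lrp5 or Lrp6, and the complex holding Axin stops marking β-catenin (Ctnnb1) for destruction, so that β-catenin can enter the nucleus and act with Tcf and Lef factors. R-spondins bind Lgr receptors and hold back the ligases Znrf3 and Rnf43, which remove Frizzleds from the surface, while Dkk proteins block the co-receptors and Sfrp proteins can bind Wnts. In ECs the pathway is known for vessel growth in the retina and for the blood-brain barrier, and Wnt5a and Wnt11 are the usual examples of ligands that can signal without β-catenin.

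Dnmt1 ranged from 86.5 to 211 CPM (read counts scaled to the size of the library) in the 16 si-control libraries and from 5.11 to 17.3 CPM in the 16 si-dnmt libraries. The 10 endothelial marker genes summed to between 2756 and 8526 CPM per library, lower with TNF or TNF + IFN, while the leukocyte genes Ptprc, Cd3e, Itgam and Adgre1 and the epithelial genes Epcam, Sftpc, Sftpb and Nkx2-1 held 3 counts or fewer in every library. The other markers of these lists were not all absent. The sum of 7 leukocyte markers was 190 to 226 CPM in si-control and 66.8 to 125 CPM in si-dnmt + TNF + IFN, made up of Lyz2, at 43.6 to 133 and 1.21 to 7.80 CPM, and Cd68, at 79.7 to 165 and 62.3 to 123 CPM. Of 7 epithelial markers only Krt18 was tested, at up to 22.6 CPM, and Cdh1 and Krt8 held at most 5 counts. Marker sums of other cell types moved with the groups. The sum of 7 pericyte and smooth muscle markers was 7.90 to 28.04 CPM in si-control and 40.2 to 185 CPM in si-dnmt without cytokine, almost all of it Acta2 and also higher with IFN, with Cspg4, Rgs5 and Des at 3 counts or fewer. The sum of 7 fibroblast markers was 170 to 207 CPM in si-control and 230 to 430 CPM in si-control + IFN, led by Thy1 at 92.5 to 159 and 193 to 406 CPM, while Tcf21 was at 0 in every library and Lum at 3 counts or fewer. Other genes of that list moved in other directions. Dcn was 0.448 to 1.91 CPM in si-control and 11.9 to 53.8 CPM with TNF, and Col3a1 was 41.7 to 78.0 CPM in si-control, 0.208 to 0.801 CPM in si-control + TNF + IFN and 13.3 to 27.4 CPM in si-dnmt. Their part in the results below was not tested, and in bulk samples fewer cells of a type cannot be told apart from less RNA per cell. Replicates 1 and 2 stood apart from replicates 3 and 4 in every group, and values by set are given for members in which the split bears on a result.

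Without a replicate block, the 3 members called higher with si-dnmt in at least 3 of the 4 cytokine states were Wnt11, Wnt5b and Fzd5, and with the block Axin1 and Lgr4 joined them. Promoter windows of Wnt11, Wnt5b and Fzd5 are shown because Dnmt1 acts on CG dinucleotides, and methylation itself was not measured here. The windows run from 250 bases before to 50 after a RefSeq start (build GRCm38.p6), and CG is in capitals. CG reads the same on both strands and its sites do not overlap one another.

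Wnt11, first start, chr7:98834862-98835161, plus strand: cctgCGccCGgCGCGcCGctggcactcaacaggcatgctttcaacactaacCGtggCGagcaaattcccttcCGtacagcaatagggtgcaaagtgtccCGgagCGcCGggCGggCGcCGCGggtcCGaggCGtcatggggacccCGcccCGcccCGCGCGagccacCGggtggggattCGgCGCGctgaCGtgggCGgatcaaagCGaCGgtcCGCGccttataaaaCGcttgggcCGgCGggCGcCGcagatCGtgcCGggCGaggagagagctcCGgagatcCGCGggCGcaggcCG
Wnt11, second start, chr7:98838595-98838894, plus strand: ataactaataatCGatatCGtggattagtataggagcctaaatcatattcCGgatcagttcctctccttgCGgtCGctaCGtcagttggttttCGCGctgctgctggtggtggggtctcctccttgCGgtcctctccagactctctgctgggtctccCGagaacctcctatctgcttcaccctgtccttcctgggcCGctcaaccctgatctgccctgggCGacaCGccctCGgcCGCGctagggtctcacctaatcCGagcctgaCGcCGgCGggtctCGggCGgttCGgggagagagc
Wnt5b, first start, chr6:119544298-119544597, minus strand: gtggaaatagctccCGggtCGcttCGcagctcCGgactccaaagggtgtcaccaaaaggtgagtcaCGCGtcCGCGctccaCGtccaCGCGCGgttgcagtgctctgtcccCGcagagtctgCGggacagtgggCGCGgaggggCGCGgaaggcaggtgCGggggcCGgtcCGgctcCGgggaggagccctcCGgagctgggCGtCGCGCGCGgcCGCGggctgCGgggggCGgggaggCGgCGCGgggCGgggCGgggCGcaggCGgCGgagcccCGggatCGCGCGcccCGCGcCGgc
Fzd5, chr1:64737701-64738000, minus strand: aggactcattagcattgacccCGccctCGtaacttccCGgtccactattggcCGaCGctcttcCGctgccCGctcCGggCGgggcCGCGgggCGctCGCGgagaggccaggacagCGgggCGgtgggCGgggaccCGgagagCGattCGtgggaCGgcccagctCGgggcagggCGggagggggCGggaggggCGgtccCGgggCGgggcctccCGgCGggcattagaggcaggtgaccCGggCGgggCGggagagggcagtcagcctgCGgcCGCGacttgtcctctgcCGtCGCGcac

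The first Wnt11 window held 45 CG and the second held 23. As many or more CG were found in 1.9% and 21.5% of the 32851 promoter windows of the RefSeq table. The first Wnt5b window held 47 CG (1.4% of windows held as many) and its other 2 windows held 4 and 7. The Fzd5 window held 38 CG, a number reached by 5.0% of all windows. The Lgr4 window, not shown, held 18 CG, reached by 29.7% of all windows, and no window was matched for Axin1. Windows were matched for 36 of the 55 members, with a median of 25 CG against 7 over the whole table, so many CG were common to the members and were also found in promoters of silent members such as Wnt3a and Fzd10, each with 45.

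Most of the Wnt ligand family was silent or scarce. Of 19 Wnt ligands, 7 stayed at or under 3 counts in all libraries (Wnt1, Wnt3, Wnt3a, Wnt8a, Wnt8b, Wnt9b and Wnt10a), and another 5 were low (Wnt2, Wnt4, Wnt6, Wnt10b and Wnt16), with at most 8 counts in a library. The other silent members were Fzd3 and Fzd10 of the receptors, Dkk1, Dkk4, Sfrp4 and Sfrp5 of the antagonists, Rspo4, Lgr5 and Rnf43. Wnt3a and Fzd10 had 0 counts in all 32 libraries. The low members outside the ligands were Rspo1, Rspo2, Sfrp2, Dkk3, Tcf7 and Lef1, and Lef1 reached no more than 5 counts. A count of 3 corresponds to a mean of 0.117 to 0.172 CPM in a group. This floor was a chosen cut, so a silent member could still hold a few counts, as Fzd3 did with 20 over 11 libraries. These limits cover counting error only.

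Levels between genes were compared per kb of exon. Ctnnb1 was the highest member at a mean of 185 CPM per kb over the 32 libraries, followed by Fzd6 (25.1), Lrp5 (21.9), Axin1 (15.8), Sfrp1 (13.1), Fzd4 (9.502), Fzd7 (8.54) and Lrp6 (6.86). Wnt5a was the highest ligand at 3.504 CPM per kb, ahead of Wnt9a (0.351), Wnt5b (0.173), Wnt2b (0.101), Wnt11 (0.0691), Wnt7a (0.0608) and Wnt7b (0.0544). The lowest tested member was Lgr6 at 0.0510 CPM per kb. Wnt5a made up 85.9% ± 4.26 (SD, n = 4) of the summed Wnt ligand level per kb in si-control and 73.7% to 84.2% on average in the other 7 groups. The summed ligand level was 5.69 ± 0.172 CPM per kb in si-control and 2.94 ± 0.412 in si-control + TNF + IFN.

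**Figure D1:**
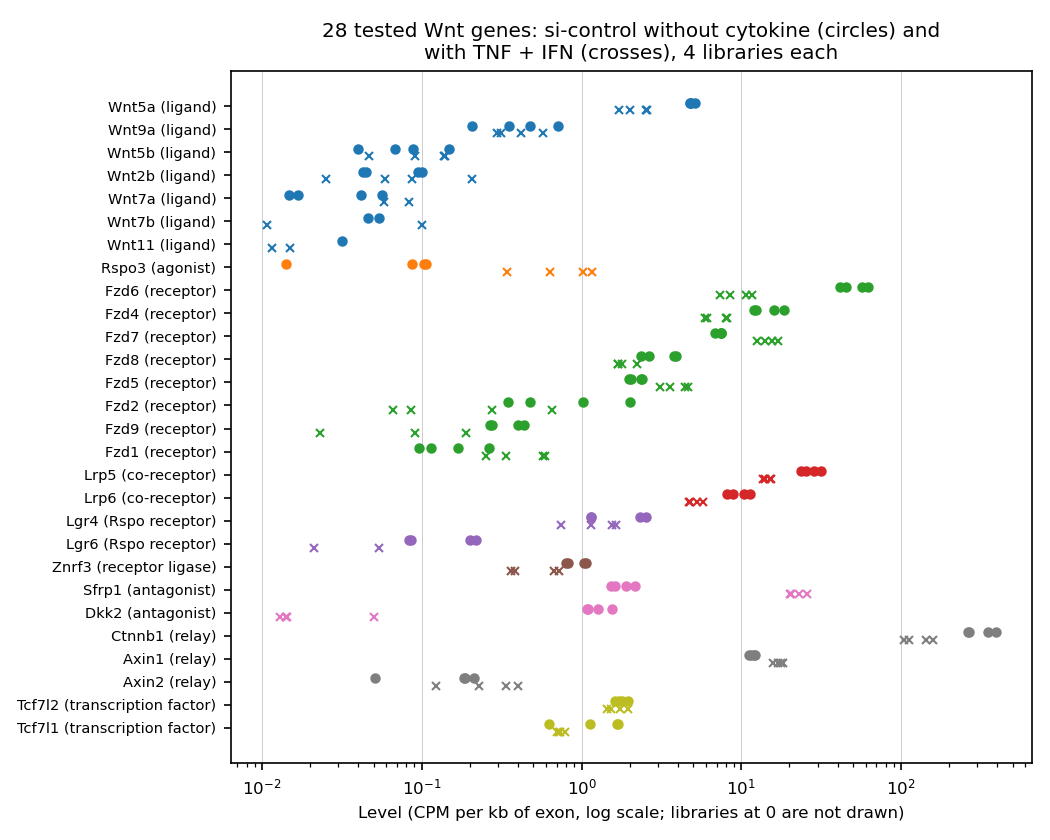
Level of each tested Wnt gene in CPM per kb of exon (log axis), with circles for the 4 si-control libraries without cytokine and crosses for the 4 with TNF + IFN, coloured by role. Ctnnb1 is the highest gene at a mean of 317 CPM per kb in si-control, Wnt5a is the highest ligand, and the crosses of Sfrp1 and Rspo3 lie to the right of their circles while those of Dkk2 and Fzd6 lie to the left.

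The effect of Dnmt1 silencing on the members was asked in each cytokine state with edgeR's quasi-likelihood F test, and a gene was called at a Benjamini-Hochberg adjusted p under 0.05 over all 15254 genes tested. Without cytokine, 3 of 28 members were higher in si-dnmt (Wnt11, Fzd5 and Axin1) and 1 was lower (Ctnnb1), where 9.58% of all genes were called higher and 8.88% lower. With TNF, 6 members were higher and 3 lower, against 10.4% and 9.59% of all genes. With IFN, 4 were higher and 1 lower, against 10.8% and 9.54%. With TNF + IFN, 4 were higher and 1 lower, against 8.97% and 8.72%. The median log2 fold change of the tested members lay between -0.05 and 0.02 in these comparisons, close to that of all genes. The median absolute log2 fold change was larger in the members, at 0.32 to 0.46 against 0.25 to 0.27 over all genes.

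The labels give replicate numbers but do not say that equal numbers belong together. Deviations from group means correlated best at the same number in 70 of 112 comparisons. Fitting the replicate number as a block called 7 members without cytokine, 15 with TNF, 10 with IFN and 12 with TNF + IFN. In that fit 32.4%, 33.4%, 34.5% and 30.8% of all genes were called.

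Wnt11, a ligand of the non-canonical branch, was nearly absent from si-control ECs. Its counts were 0, 0, 3 and 0 in si-control, 4, 2, 3 and 6 in si-control + TNF, 0 in all 4 libraries of si-control + IFN, and 1, 0, 1 and 0 in si-control + TNF + IFN. The si-dnmt libraries held 10, 4, 6 and 13 counts without cytokine, 33, 19, 20 and 24 with TNF, 1, 3, 7 and 3 with IFN, and 5, 4, 9 and 15 with TNF + IFN. In each state every si-dnmt library was above every si-control library, and the level was highest in si-dnmt + TNF at 1.14 ± 0.291 CPM (SD, n = 4).

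Wnt11 was called higher in all 4 states by edgeR. No si-control library held more than 6 counts, so Wnt11 passed the low-count filter (minimum count 10) through si-dnmt libraries alone. It could thus enter the test only by being high with si-dnmt. With TNF, where both groups had counts, its log2 fold change reached 2.72 with an SE of 0.54 (adjusted p = 0.00076). Without cytokine, 33 counts stood against 3, a ratio of 9.02 with a 95% exact counting interval of 2.83 to 46.0 (adjusted p = 0.00654). With TNF + IFN, 33 counts stood against 2, a ratio of 17.6 with an interval of 4.50 to 151 (adjusted p = 0.00141). With IFN, 14 counts stood against 0 (adjusted p = 0.00967), and the si-dnmt mean was under the level that 3 counts per library allow in si-control, so no fold is given. The fitted log2 change without cytokine moved from 2.99 to 5.78 when si-control replicate 3, the only library of its group with counts, was left out. Under si-dnmt, Wnt11 rose with TNF by a log2 fold change of 1.82 ± 0.49 (adjusted p = 0.00946 by edgeR).

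Wnt5b, a close relative of Wnt5a, was also low in si-control ECs. Its counts were 5, 2, 9 and 4 in si-control, 14, 5, 4 and 7 with TNF, 3, 1, 2 and 5 with IFN and 5, 7, 2 and 7 with TNF + IFN. With si-dnmt they were 10, 15, 15 and 13 without cytokine, 14, 18, 19 and 16 with TNF, 13, 15, 26 and 12 with IFN and 10, 13, 13 and 10 with TNF + IFN. Scaled by library, the si-dnmt libraries lay above the si-control libraries in all 4 states. Of the si-control libraries, only si-control + TNF replicate 1 held 10 counts or more, so Wnt5b passed the low-count filter through si-dnmt libraries.

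Wnt5b rose most with IFN, at 0.724 ± 0.353 against 0.150 ± 0.0931 CPM and a log2 fold change of 2.21 ± 0.46 (edgeR, adjusted p = 0.000956). For TNF it came to 1.23 ± 0.40 (adjusted p = 0.0278), and for TNF + IFN to 1.23 ± 0.43 (adjusted p = 0.0461). Without cytokine it was 1.12 ± 0.43, which did not pass without the block (adjusted p = 0.0664) and passed with the replicate block (adjusted p = 0.0495). The calls with TNF and with TNF + IFN were weak. Leaving out any 1 library, replicate 1 of either group excepted, ended the first, with values of 1.02 to 1.69. Leaving out any 1 library other than si-dnmt + TNF + IFN replicate 4 ended the second, with values of 1.011 to 1.40.

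Fzd5, a Frizzled receptor, was measured with far more counts. Its levels were 14.2, 13.7, 16.2 and 16.5 CPM in si-control and 25.0, 21.5, 25.2 and 25.7 CPM in si-dnmt. With TNF they were 16.8, 16.3, 21.6 and 18.4 CPM in si-control and 25.8, 23.9, 23.2 and 24.1 CPM in si-dnmt. With IFN they were 22.7, 22.2, 23.2 and 22.03 CPM against 35.8, 35.6, 28.2 and 30.6 CPM. With TNF + IFN they were 32.05, 30.6, 24.7 and 21.5 CPM against 43.1, 44.8, 36.7 and 37.2 CPM, the highest of the 8 groups. The siRNA groups did not overlap in any state.

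In the order no cytokine, TNF, IFN and both cytokines, the log2 fold changes of Fzd5 with si-dnmt were 0.68, 0.41, 0.53 and 0.57, each with an SE of 0.11, and with edgeR adjusted p = 8.38e-05, 0.0108, 0.00117 and 0.000566. It passed in each leave-one-out fit of these 4 contrasts.

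The other ligands with a call moved by less or in fewer states. Under TNF, Wnt5a was 24.4 ± 2.94 CPM with the control siRNA and 34.2 ± 3.59 CPM with si-dnmt, a log2 fold change of 0.48 ± 0.15 (edgeR, adjusted p = 0.0235). With TNF + IFN it was 17.3 ± 3.21 against 24.4 ± 4.30 CPM (0.49 ± 0.15, adjusted p = 0.0249). The Wnt5a difference was -0.07 ± 0.15 without cytokine and 0.02 ± 0.15 with IFN. Wnt9a was lower with si-dnmt under TNF, at 0.957 ± 0.312 against 2.20 ± 0.893 CPM (log2 fold change -1.20 ± 0.43, adjusted p = 0.0487). The Wnt5a call with TNF ended (0.42 to 0.57) on leaving out replicate 2, 3 or 4 of si-control + TNF, or replicate 2 or 4 of si-dnmt + TNF. Its call with TNF + IFN ended (0.39 to 0.61) on leaving out replicate 1 or 2 of si-control + TNF + IFN, or replicate 1, 3 or 4 of si-dnmt + TNF + IFN. The Wnt9a call ended when any library but si-control + TNF replicate 3 or 4 was left out (-1.37 to -0.91). With TNF + IFN the Wnt9a difference of -1.29 ± 0.48 did not pass (adjusted p = 0.0595) but passed with the replicate block (adjusted p = 0.0267). Wnt2b behaved likewise with TNF, at 1.44 ± 0.53 (adjusted p = 0.0540) and with the block at adjusted p = 0.0305. Wnt7a and Wnt7b were called in none of the 13 contrasts with or without the block, and their libraries ranged from 0 to 0.952 and from 0 to 1.29 CPM. Both genes were split by replicate set. Replicates 1 and 2 held at most 1 count of Wnt7a and 2 of Wnt7b in any group, while replicates 3 and 4 held up to 22 and 28. Wnt7b was 0, 0, 0.264 and 0.224 CPM in si-control and 0, 0, 0.887 and 0.626 CPM in si-dnmt. In replicates 3 and 4 alone it was called higher with si-dnmt without cytokine (1.61) and with IFN, where 9 and 18 counts stood against 2 and 1. These are the replicates in which the gene was mostly seen, 2 per group, so the calls are not read as a result. Over all 4 replicates the edgeR adjusted p was 0.428 and 0.448.

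Among receptors and co-receptors, Fzd1 was lower with si-dnmt under TNF, at 0.226 ± 0.0478 against 0.696 ± 0.0647 CPM (log2 fold change -1.60 ± 0.43, edgeR adjusted p = 0.00815). Fzd7 was lower under TNF + IFN, at 53.3 ± 3.14 against 67.0 ± 9.05 CPM (-0.33 ± 0.09, adjusted p = 0.0118), a call lost without si-control + TNF + IFN replicate 1 (closest to 0 at -0.26). Lrp5 was higher under TNF, at 177 ± 23.6 against 136 ± 13.9 CPM (0.38 ± 0.12, adjusted p = 0.0245). The Lrp5 call ended (0.31 to 0.45) on leaving out replicate 1, 3 or 4 of si-control + TNF, or replicate 1 or 2 of si-dnmt + TNF. Without cytokine, Lrp5 went opposite ways in the replicate sets, at 0.42 in replicates 1 and 2 and -0.29 in replicates 3 and 4, each called within its set, and the pooled value was 0.07 ± 0.12.

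Lgr4, an R-spondin receptor, was higher in replicates 3 and 4 than in 1 and 2 of every group. Its level in si-control was 6.71 and 6.73 CPM in replicates 1 and 2 and 14.8 and 13.6 CPM in replicates 3 and 4. In si-dnmt it was 10.8, 11.3, 25.0 and 22.7 CPM. No siRNA contrast passed for Lgr4 without the block. With the block, Lgr4 was higher in si-dnmt in all 4 states, by log2 fold changes of 0.73, 0.91, 0.38 and 0.78 without cytokine, with TNF, with IFN and with TNF + IFN (edgeR, adjusted p = 2.05e-05, 1.01e-06, 0.0190 and 2.17e-05).

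The block also called Fzd6 lower without cytokine, with TNF and with IFN (log2 fold changes -0.53, -0.23 and -0.28). Fzd4 was lower with the block in the 3 cytokine states (-0.53, -0.35 and -0.72). Rspo3 was lower with TNF (-1.59, adjusted p = 0.0091), and Fzd1 was lower with TNF + IFN (-0.96, adjusted p = 0.0228). Sfrp1 was higher with TNF + IFN (0.48, adjusted p = 0.0427), and Znrf3 was higher with IFN (0.40, adjusted p = 0.0358). The Sfrp1 difference lay mostly in replicates 1 and 2, at 195 and 179 CPM in si-dnmt against 101 and 113 CPM. Replicates 3 and 4 were at 95.4 and 99.0 against 87.9 and 89.1 CPM. For Fzd6 with TNF, replicates 1 and 2 were at 87.0 and 87.1 CPM in si-dnmt against 105 and 111 CPM. Its replicates 3 and 4 were at 53.5 and 53.4 against 62.9 and 54.3 CPM.

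Of the relay genes, Ctnnb1 was lower with si-dnmt without cytokine, at 1117 ± 245 against 1646 ± 331 CPM (log2 fold change -0.56 ± 0.19, edgeR adjusted p = 0.0363), and with TNF, at 725 ± 81.3 against 1069.5 ± 219 CPM (-0.56 ± 0.19, adjusted p = 0.0339). Each call ended on leaving out replicate 1 or 2 of its si-control group, or replicate 3 or 4 of its si-dnmt group, with ranges of -0.67 to -0.44 and -0.65 to -0.44. With IFN and with TNF + IFN the differences were -0.27 ± 0.19 and -0.18 ± 0.19, which passed only with the block (adjusted p = 0.0050 and 0.0490). Axin1, a scaffold of the destruction complex, was higher without cytokine, at 61.0 ± 4.43 against 44.8 ± 1.87 CPM (0.44 ± 0.09, adjusted p = 0.000557), and with IFN (0.50 ± 0.09, adjusted p = 0.000159). With TNF and TNF + IFN its differences of 0.23 ± 0.09 and 0.20 ± 0.09 passed with the block alone (adjusted p = 0.0177 and 0.0447). The Axin1 difference with TNF lay mostly in replicates 1 and 2, at 64.6 and 63.7 CPM in si-dnmt against 46.3 and 48.0 CPM. Replicates 3 and 4 were at 66.9 and 65.7 CPM in si-dnmt against 63.8 and 64.9 CPM.

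Axin2, a direct target of β-catenin and an inhibitor of it, differed between siRNAs in opposite directions under the 2 cytokines. Its counts were 6, 22, 23 and 23 in si-control, 6, 1, 6 and 4 in si-control + TNF, 60, 58, 27 and 35 in si-control + IFN, and 26, 13, 36 and 35 in si-control + TNF + IFN. With si-dnmt they were 11, 15, 28 and 11 without cytokine, 14, 19, 14 and 12 with TNF, 22, 34, 11 and 28 with IFN and 20, 19, 24 and 18 with TNF + IFN. The si-control level thus spanned 0.187 ± 0.0999 CPM with TNF to 2.44 ± 0.898 CPM with IFN, while the si-dnmt group means stayed between 0.617 and 1.16 CPM.

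With TNF, Axin2 was higher in si-dnmt by a log2 fold change of 1.85 ± 0.49 (edgeR, adjusted p = 0.00792), and with IFN it was lower by -1.30 ± 0.39 (adjusted p = 0.0176). The second call ended without si-control + IFN replicate 1 or si-dnmt + IFN replicate 3 or 4 (-1.53 to -1.09). The difference between these siRNA effects, a contrast added after the values were seen, was 3.15 ± 0.63, which just missed the threshold (adjusted p = 0.0517, with 7 of all genes called) and passed with the replicate block (adjusted p = 0.0153, with 117 genes called).

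Fzd2, Fzd8, Fzd9, Lrp6, Lgr6, Dkk2, Tcf7l1 and Tcf7l2 passed in no siRNA contrast of either fit. In si-dnmt + TNF + IFN all 4 libraries held 0 counts of Dkk2, against 1, 1, 3 and 1 in si-control + TNF + IFN, so no fold is given.

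**Figure D2:**
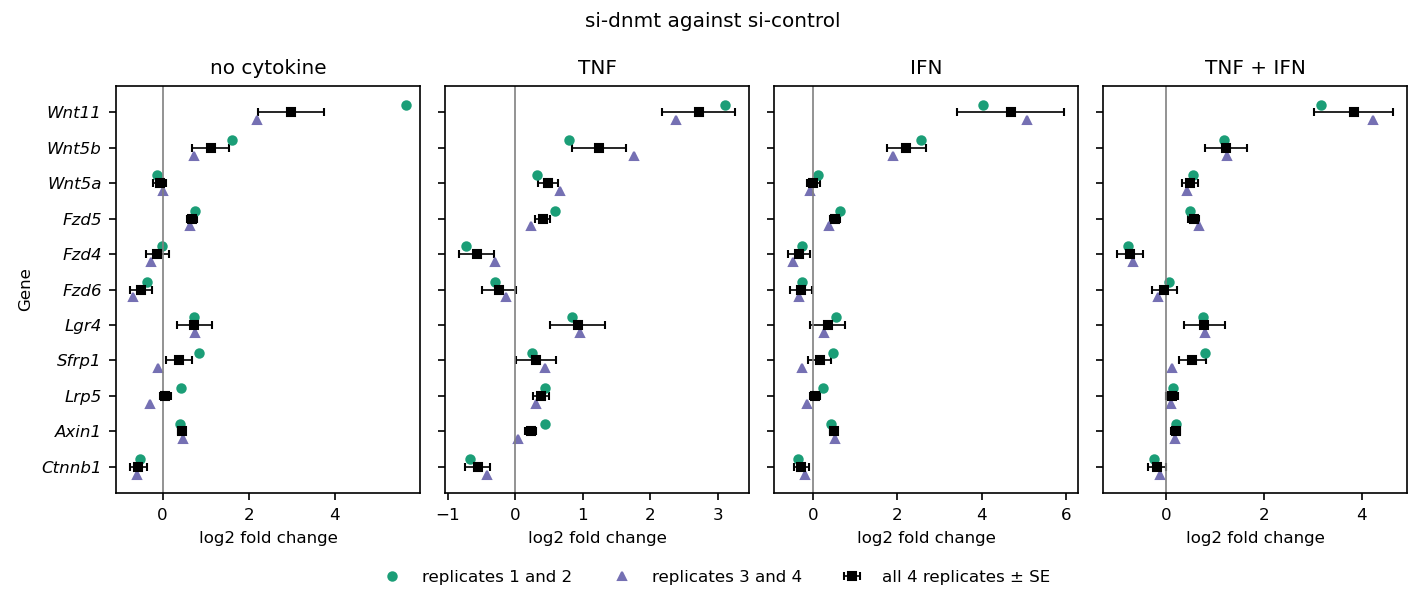
log2 fold change of si-dnmt against si-control in each cytokine state (panels) for 11 members, with black squares and SE bars for all 4 replicates, circles for replicates 1 and 2 alone and triangles for replicates 3 and 4 alone. Wnt11, Wnt5b, Fzd5 and Lgr4 lie right of 0 in both sets of every panel, while Lrp5 without cytokine and Sfrp1 with IFN lie on opposite sides of 0 in the sets.

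TNF and TNF + IFN called more members than Dnmt1 silencing did. In si-control, TNF called 2 members higher and 13 lower, against 16.1% and 14.6% of all genes. IFN called 5 higher and 5 lower, against 8.56% and 5.92%. TNF + IFN called 6 higher and 13 lower, against 23.5% and 21.6%. In si-dnmt the calls were 1 higher and 10 lower with TNF (11.5% and 9.54% of all genes), 2 and 3 with IFN (6.66% and 2.35%), and 5 and 12 with TNF + IFN (21.3% and 18.9%). The median log2 fold change of the 28 tested members was -0.41 with TNF + IFN in si-control and -0.56 in si-dnmt, beside medians of -0.01 and 0.01 over all genes. The 3 comparisons within an siRNA share their control libraries, so values are given side by side and their similarity is not read as a result. With the replicate block, IFN in si-dnmt called 14 members in place of 5, with 19.0% of all genes called. The 9 added were Fzd1 and Rspo3 (higher) and Ctnnb1, Fzd2, Fzd4, Fzd6, Fzd8, Lgr4 and Znrf3 (lower), with log2 fold changes from -1.15 for Fzd2 to 1.65 for Rspo3. In the other cytokine contrasts of si-control the block added Wnt11 with TNF (15 counts against 3, a ratio of 4.77 with an exact counting interval of 1.35 to 25.7), Fzd4 (-0.32), Fzd6 (-0.60), Fzd8 (-0.40), Lgr4 (-0.50) and Lgr6 (-1.76) with IFN, and Lgr4 (-0.45) with TNF + IFN. In si-dnmt it added Fzd1 (-1.11), Fzd2 (-1.08), Lgr6 (-1.88) and Znrf3 (-0.43) with TNF, and Fzd1 (0.91) and Lgr4 (-0.40) with TNF + IFN.

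**Figure D3:**
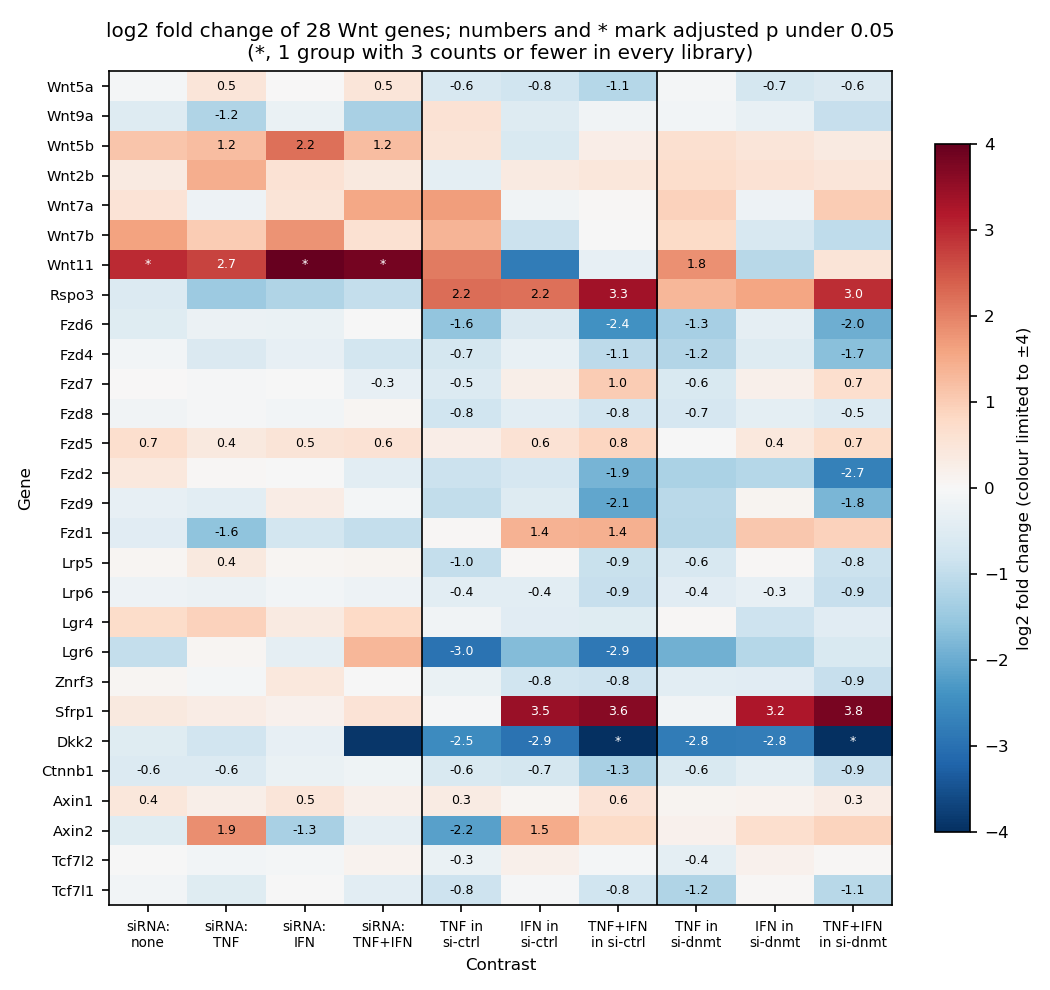
log2 fold change of 28 tested members (rows, by role) in 10 contrasts (columns), red for higher and blue for lower, with numbers for calls at an adjusted p under 0.05 and asterisks for calls in which 1 group held 3 counts or fewer in every library. The Wnt11 row is red in the 4 siRNA columns, the Sfrp1 row is red where IFN was given, and the Dkk2 row is blue in the 6 cytokine columns.

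Sfrp1, a secreted antagonist that can bind Wnts, had the largest rise with IFN. Its levels in si-control were 7.04, 6.68, 9.45 and 8.34 CPM without cytokine, 11.0, 10.1, 4.71 and 4.55 CPM with TNF, 89.7, 81.8, 88.8 and 85.9 CPM with IFN, and 101, 113, 87.9 and 89.1 CPM with TNF + IFN. In si-dnmt they were 11.7, 13.05, 7.03 and 9.56 CPM without cytokine, 12.8, 12.2, 5.81 and 6.84 CPM with TNF, 123, 118, 68.8 and 77.1 CPM with IFN, and 195, 179, 95.4 and 99.0 CPM with TNF + IFN. All 16 libraries given IFN were above all 16 that were not.

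In si-control IFN raised Sfrp1 by a log2 fold change of 3.45 ± 0.31, or 11.0-fold (edgeR, adjusted p = 9.32e-10), and both cytokines by 3.63 ± 0.31 (adjusted p = 1.26e-10). In si-dnmt the values were 3.23 ± 0.30 (adjusted p = 3.78e-09) and 3.79 ± 0.31 (adjusted p = 6.57e-11). With TNF alone the pooled value was -0.05 ± 0.30, made of 0.64 in replicates 1 and 2 and -0.94 in replicates 3 and 4, each called within its set. The siRNA effect with IFN was split in the same manner, at 0.48 and -0.26 in the sets and 0.16 ± 0.27 pooled. The fibroblast marker sum also rose with IFN in si-control, led by Thy1 as given above. Of the same list, Col3a1 was 41.7 to 78.0 CPM in si-control and 20.7 to 36.1 CPM with IFN. Dcn was 0.448 to 1.91 and 0.810 to 1.68 CPM. Whether these markers bear on the Sfrp1 rise was not tested.

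Dkk2, an antagonist of the co-receptors, fell with each cytokine. Its counts in si-control were 86, 77, 130 and 105 without cytokine, 38, 19, 11 and 5 with TNF, 19, 6, 9 and 10 with IFN and 1, 1, 3 and 1 with TNF + IFN. In si-dnmt they were 101, 102, 55 and 72 without cytokine, 15, 19, 3 and 3 with TNF, 10, 9, 8 and 21 with IFN, and 0 in all 4 libraries with TNF + IFN. No treated library overlapped the untreated ones.

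The log2 fold change of Dkk2 in si-control was -2.51 ± 0.48 with TNF (edgeR, adjusted p = 0.000249, and -3.11 without si-control + TNF replicate 1) and -2.94 ± 0.50 with IFN (adjusted p = 0.000113). In si-dnmt it was -2.79 ± 0.50 (adjusted p = 0.000237) and -2.76 ± 0.50 (adjusted p = 0.000311). With TNF + IFN in si-control, 398 counts stood against 6, a ratio of 58.5 with a 95% exact counting interval of 26.6 to 160 (adjusted p = 6.76e-08). In si-dnmt, 330 counts stood against 0, and Dkk2 was at least 19.3-fold lower against a floor of 3 counts per library (adjusted p = 4.25e-08).

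Rspo3, an R-spondin known to act in vessel remodelling, rose with the cytokines. Its counts in si-control were 7, 6, 1 and 6 without cytokine, 41, 18, 23 and 20 with TNF, 34, 19, 16 and 13 with IFN and 75, 61, 17 and 37 with TNF + IFN. In si-dnmt they were 3, 10, 0 and 3 without cytokine, 22, 6, 5 and 2 with TNF, 14, 8, 7 and 18 with IFN and 25, 44, 7 and 11 with TNF + IFN. In si-control each treated group was above the untreated one in every library, while in si-dnmt the groups overlapped. The untreated libraries held at most 10 counts, so Rspo3 passed the low-count filter through treated libraries.

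In si-control the log2 fold changes of Rspo3 were 2.23 ± 0.69, 2.21 ± 0.70 and 3.34 ± 0.68 for TNF, IFN and both cytokines (edgeR, adjusted p = 0.0146, 0.0313 and 0.000201). The TNF call ended without si-control replicate 3 (range 1.88 to 2.43 over the libraries left out). The IFN call ended without si-control replicate 2, 3 or 4 or si-control + IFN replicate 1 (1.80 to 2.403). In si-dnmt it was 2.96 ± 0.72 with TNF + IFN (adjusted p = 0.00147), moving to 3.97 without si-dnmt replicate 2 and 2.33 without si-dnmt + TNF + IFN replicate 2. With TNF and IFN alone it was 1.34 ± 0.77 and 1.57 ± 0.75, which did not pass, the second passing with the block (adjusted p = 0.0423). Of the other R-spondins, Rspo2 held 1 count in the si-control group and 17 in si-control + TNF + IFN, and 4 and 27 counts under si-dnmt, too few to be tested.

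Lgr6, a receptor for R-spondins, had the largest log2 fall of the called members with TNF in si-control. Of the treated libraries, only si-control + IFN replicate 1 held 10 counts or more, so Lgr6 passed the low-count filter through untreated libraries. Its fall is thus not independent of the filter. Its counts were 32, 26, 13 and 13 in si-control, 2, 3, 1 and 5 with TNF, 11, 7, 2 and 2 with IFN and 3, 0, 0 and 7 with TNF + IFN. In si-dnmt they were 22, 17, 6 and 6 without cytokine, 3, 0, 1 and 7 with TNF, 3, 8, 4 and 8 with IFN and 7, 4, 5 and 8 with TNF + IFN. The log2 fold change in si-control was -2.96 ± 0.73 with TNF and -2.87 ± 0.75 with TNF + IFN (edgeR, adjusted p = 0.00269 and 0.00238), the latter -4.13 without si-control + TNF + IFN replicate 4. With IFN it was -1.73 ± 0.67 (adjusted p = 0.0858), and in si-dnmt -1.92 ± 0.76 with TNF (adjusted p = 0.0712). Both passed with the block (adjusted p = 0.0184 and 0.0284). In si-dnmt with TNF + IFN the log2 fold change of Lgr6 was -0.60 ± 0.68 and was not called (edgeR, adjusted p = 0.523).

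**Figure D4:**
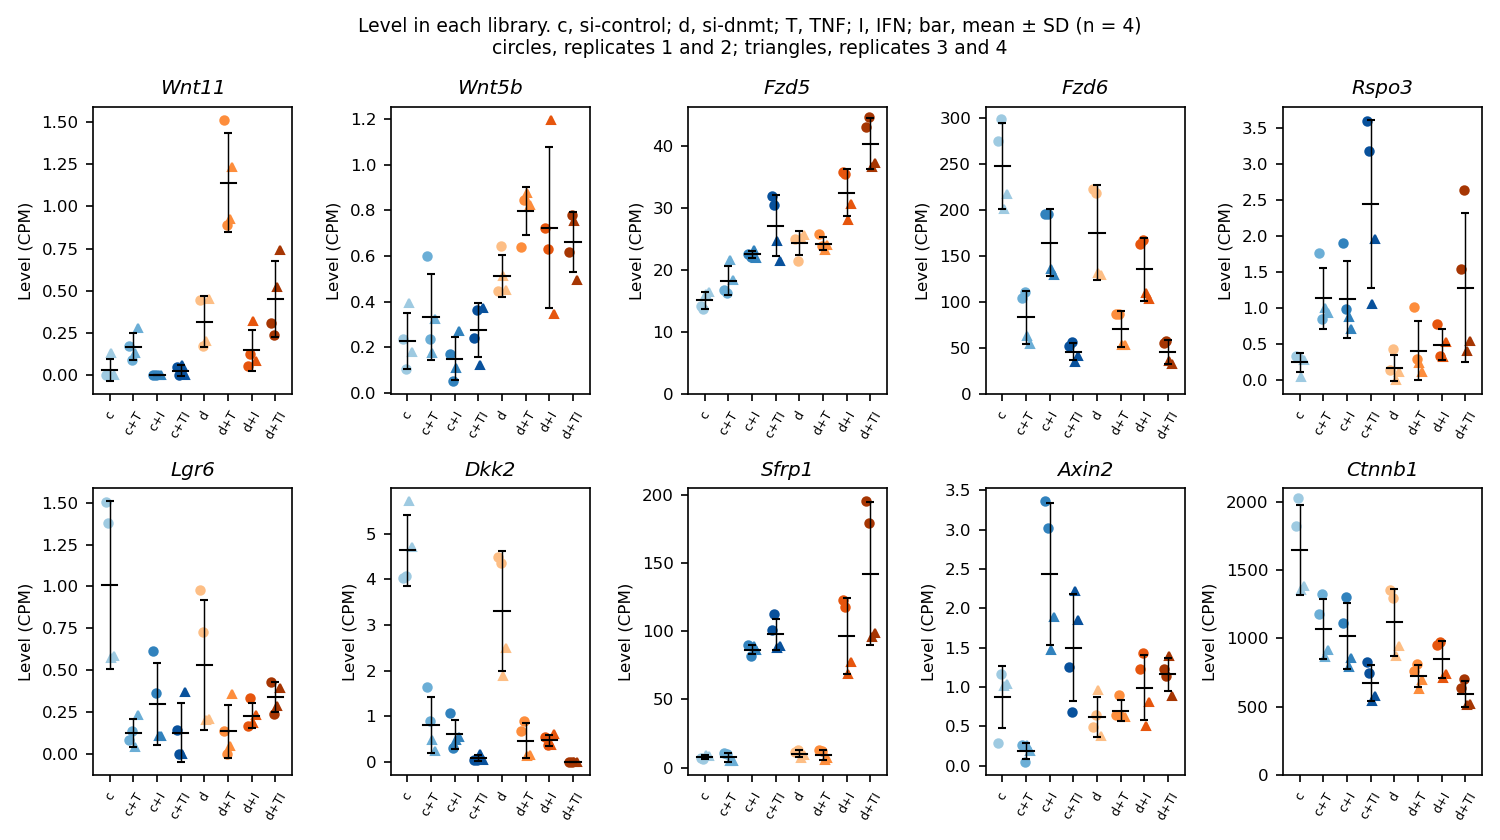
Level in CPM of 10 members in each of 32 libraries, by group on the horizontal axis, with circles for replicates 1 and 2, triangles for replicates 3 and 4, black bars for the mean and whiskers for the SD (n = 4). Sfrp1 is high in the 4 groups given IFN, Dkk2 is high in the 2 groups without cytokine, and Axin2 is lowest in si-control + TNF at a mean of 0.187 CPM.

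The Frizzled receptors did not move together. Fzd6, the highest Frizzled at rest, was 274, 298, 200.5 and 217 CPM in si-control and 51.9, 56.1, 35.3 and 41.1 CPM in si-control + TNF + IFN. Its log2 fold change was -1.57 ± 0.26 with TNF and -2.42 ± 0.27 with TNF + IFN (edgeR, adjusted p = 3.75e-05 and 2.24e-08). Fzd4, the receptor of norrin in retinal vessels, was 98.8 ± 20.4 CPM at rest and 47.5 ± 8.01 CPM under the combined cytokines (-1.06 ± 0.26, adjusted p = 0.00166). With TNF alone Fzd4 fell by -0.70 ± 0.26 (adjusted p = 0.0403), a call that ended on leaving out replicate 1 or 2 of si-control, or replicate 3 or 4 of si-control + TNF (-0.91 to -0.53). Its levels with TNF were 79.8, 84.3, 41.6 and 36.7 CPM, and the fall was -0.48 in replicates 1 and 2 and -1.07 in replicates 3 and 4. Fzd2, Fzd8 and Fzd9 fell with TNF + IFN by log2 values of -1.87 ± 0.69, -0.77 ± 0.15 and -2.08 ± 0.52. Fzd2 was 1.74, 1.272, 7.38 and 3.72 CPM in si-control and 0.240, 0.312, 2.404 and 1.006 CPM with TNF + IFN, higher in replicates 3 and 4 of both groups. The Fzd2 call ended without si-control replicate 3 or si-control + TNF + IFN replicate 1, 2 or 4, and its value ran from -2.77 without si-control + TNF + IFN replicate 3 to -1.22 without si-control replicate 3. Fzd9 was -3.04 without si-control + TNF + IFN replicate 1.

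Fzd7, Fzd5 and Fzd1 rose with TNF + IFN in si-control. Fzd7 was 33.1 ± 1.36 CPM without cytokine, 22.8 ± 1.61 with TNF, 39.0 ± 4.82 with IFN and 67.0 ± 9.05 with TNF + IFN. It fell with TNF (-0.54 ± 0.09, edgeR adjusted p = 5.48e-05) and rose with TNF + IFN (1.02 ± 0.09, adjusted p = 4.47e-10), with the same directions called in si-dnmt (-0.62 ± 0.09 and 0.66 ± 0.09). Fzd5 rose by 0.57 ± 0.11 with IFN and 0.85 ± 0.11 with both cytokines (adjusted p = 0.000542 and 5.57e-07), and Fzd1 by 1.38 ± 0.36 and 1.43 ± 0.36 (adjusted p = 0.00829 and 0.00183).

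The make-up of the Frizzled mRNA therefore changed. Per kb of exon, Fzd6 made up 63.8% ± 2.37 (SD, n = 4) of the summed Frizzled level in si-control and 25.1% ± 2.64 with TNF + IFN. Over the same groups the share of Fzd7 went from 9.31% ± 1.70 to 39.0% ± 1.66 and that of Fzd5 from 2.81% ± 0.673 to 10.3% ± 0.486. In si-dnmt the shares with TNF + IFN were 27.5% ± 5.05 for Fzd6, 35.2% ± 3.93 for Fzd7 and 17.4% ± 0.750 for Fzd5. The summed Frizzled level was 80.2 ± 12.2 CPM per kb in si-control and 38.0 ± 5.65 with TNF + IFN. Shares of a sum are bound to one another, and no test was run on them.

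**Figure D5:**
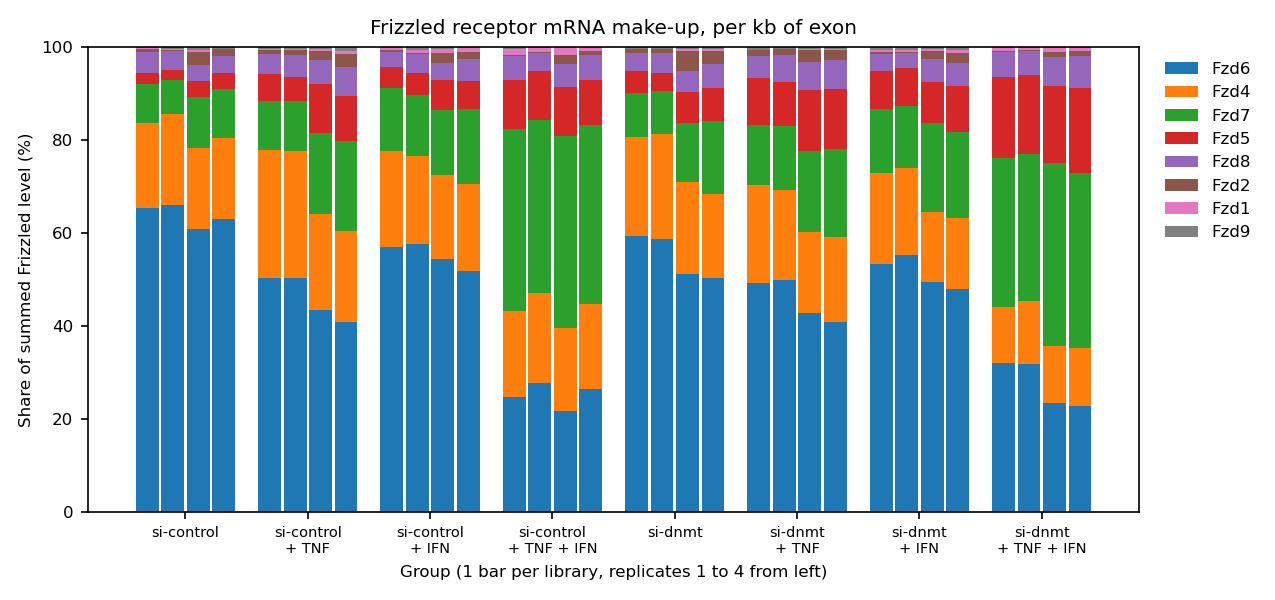
Share of each Frizzled in the summed Frizzled level (percent, CPM per kb of exon), 1 stacked bar per library. Fzd6 is the largest segment in the 6 groups without the combined cytokines, and Fzd7 is larger in the means of both TNF + IFN groups.

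The co-receptors fell. Lrp5 was 265 ± 35.0 CPM in si-control, 136 ± 13.9 with TNF, 272 ± 28.7 with IFN and 142 ± 7.58 with TNF + IFN, a fall of -0.96 ± 0.12 with TNF (edgeR, adjusted p = 5.95e-07) and a difference of 0.04 ± 0.12 with IFN (adjusted p = 0.902). Lrp6 fell with each cytokine, by -0.42 ± 0.10 with TNF, -0.43 ± 0.10 with IFN and -0.91 ± 0.11 with both (adjusted p = 0.00268, 0.00478 and 4.28e-08). In si-dnmt the Lrp6 call with IFN (-0.34 ± 0.10, adjusted p = 0.0374) ended without si-dnmt replicate 1, 2 or 3 or si-dnmt + IFN replicate 3 or 4 (range -0.43 to -0.25). Znrf3, a ligase that removes Frizzleds, fell by -0.78 ± 0.26 with IFN and by -0.81 ± 0.26 with both cytokines (adjusted p = 0.0437 and 0.0127). The first ended without si-control replicate 2, 3 or 4 or si-control + IFN replicate 1, 2 or 3 (-0.95 to -0.70), and the second without si-control + TNF + IFN replicate 1 or 2 (-0.996 to -0.67).

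Wnt5a fell from 38.2 ± 1.34 CPM in si-control to 24.4 ± 2.94 with TNF, 22.1 ± 5.29 with IFN and 17.3 ± 3.21 with TNF + IFN, by log2 fold changes of -0.64 ± 0.15, -0.79 ± 0.15 and -1.14 ± 0.15 (edgeR, adjusted p = 0.00175, 0.000429 and 6.14e-07). In si-dnmt the value with TNF was -0.09 ± 0.15 (adjusted p = 0.728), while IFN and TNF + IFN gave -0.70 ± 0.15 and -0.58 ± 0.15, both called. The difference between the TNF responses of the 2 siRNAs was 0.55 ± 0.21 and did not pass (adjusted p = 0.565).

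Of the relay genes, Ctnnb1 had the highest counts. It was 1823, 2025, 1352 and 1385 CPM in si-control and 824, 744, 544 and 579 CPM with TNF + IFN, a log2 fold change of -1.29 ± 0.19 (edgeR, adjusted p = 2.38e-06). With TNF it fell by -0.62 ± 0.19 (adjusted p = 0.0121) and with IFN by -0.69 ± 0.19 (adjusted p = 0.0108). The TNF call ended without si-control replicate 2 or si-control + TNF replicate 3 (-0.74 to -0.51), and the IFN call without si-control replicate 2 (closest to 0 at -0.58). Axin1 rose by 0.31 ± 0.09 with TNF and 0.55 ± 0.09 with both cytokines (adjusted p = 0.00675 and 6.79e-06). The Axin1 rise with TNF lay mostly in replicates 3 and 4. Its levels in replicates 1 to 4 were 42.7, 44.0, 46.0 and 46.7 CPM in si-control. With TNF they were 46.3, 48.0, 63.8 and 64.9 CPM. Axin2 fell with TNF (-2.17 ± 0.48, adjusted p = 0.00108) and rose with IFN (1.48 ± 0.40, adjusted p = 0.0101), the latter call ending without si-control + IFN replicate 1 (1.18).

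Of the factors that pair with β-catenin, Tcf7l1, mostly a repressor, fell by -0.83 ± 0.27 with TNF and -0.80 ± 0.27 with both cytokines (edgeR, adjusted p = 0.0201 and 0.0177). Both calls ended without si-control replicate 3 or 4 (-1.06 to -0.67 and -1.03 to -0.64). In si-dnmt they were -1.20 ± 0.28 and -1.12 ± 0.28 and passed in all leave-one-out fits. Tcf7l2 fell with TNF, by -0.28 ± 0.09 (adjusted p = 0.0168) in si-control and -0.38 ± 0.09 (adjusted p = 0.00295) in si-dnmt. The si-control call ended without si-control replicate 2 or si-control + TNF replicate 3 (-0.34 to -0.23).

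Whether si-dnmt changed a cytokine response was asked by interaction terms. By edgeR, 0 of 28 members were called in the interaction of the siRNA with TNF, with IFN or with TNF + IFN, where 0.0328%, 0.0459% and 0.531% of all genes were called. At an unadjusted p under 0.05 there were 2, 0 and 3 members, and DESeq2 called 0 in each. With the replicate block 3 members were called for TNF + IFN (4.18% of all genes). These were Fzd4 (-0.57, adjusted p = 0.0260), Fzd6 (0.48, adjusted p = 0.00906) and Ctnnb1 (0.38, adjusted p = 0.0200). Fzd4 thus fell by more in si-dnmt (-1.66 ± 0.27 against -1.06 ± 0.26), while Fzd6 (-1.95 ± 0.27 against -2.42 ± 0.27) and Ctnnb1 (-0.92 ± 0.19 against -1.29 ± 0.19) fell by less.

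Other genes of the pathway were counted from 4 lists, to be read beside the 23.5% of all genes called higher and 21.6% lower with TNF + IFN in si-control, and beside the 8.97% to 10.8% called higher and 8.72% to 9.59% lower with si-dnmt over the 4 states. Of 11 tested co-receptors and non-canonical receptors outside the members, TNF + IFN called 0 higher and 9 lower in si-control (23.5% and 21.6% of all genes), with a median log2 fold change of -1.15. The largest falls were Celsr1 (-3.17 ± 0.56, edgeR adjusted p = 3.07e-05) and Prickle2 (-2.66 ± 0.32, adjusted p = 6.63e-08), planar polarity genes. With si-dnmt, Reck, which helps present Wnt7 ligands to their receptors, was higher in all 4 states (0.44, 0.78, 0.47 and 0.42). It was the only riser of its list. The number lower was 2 without cytokine, 2 with TNF, 3 with IFN and 5 with TNF + IFN. The largest falls were Prickle1 (-0.49) and Vangl2 (-0.43) without cytokine, Vangl2 (-0.57) and Vangl1 (-0.27) with TNF, Prickle1 (-0.51) and Vangl2 (-0.44) with IFN, and Adgra2 (-0.59) and Tspan12 (-0.47) with TNF + IFN.

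Of 8 tested secretion factors and extracellular antagonists, TNF + IFN lowered 3 and raised 0 in si-control (21.6% and 23.5% of all genes), led by Cthrc1 (-3.11 ± 0.84, edgeR adjusted p = 0.00332) and the antagonist Frzb (-2.99 ± 0.64, adjusted p = 0.000351). With si-dnmt, Kremen1, a receptor for Dkk proteins, was higher in all 4 states (0.55, 0.87, 0.79 and 0.68), and Gpc4 was higher without cytokine (1.59) and with IFN (1.12). Of this list 0 genes were called lower with si-dnmt.

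Of 24 tested genes of the destruction complex and relay, TNF + IFN in si-control raised 1, the β-catenin co-activator Bcl9 (1.18 ± 0.15), and lowered 10, led by Dact3 (-1.83 ± 0.76) and Tle2 (-1.71 ± 0.22), beside 23.5% and 21.6% of all genes. With si-dnmt 3 genes were higher in each state, a share near the 8.97% to 10.8% of all genes. Bcl9 was among the larger rises in all 4 (0.67, 0.90, 0.92 and 1.04), Dvl3 in 3 (0.85 without cytokine, 1.006 with IFN and 0.89 with TNF + IFN), and Apc2 with TNF (1.35). The larger falls were Ppp2r5a in each state (-0.54, -0.45, -0.57 and -0.44), Cby1 (-0.43) without cytokine, Csnk1g1 with TNF (-0.49) and TNF + IFN (-0.42), and Tle1 (-0.60) with IFN. The falls numbered 3, 5, 4 and 3.

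Of 19 tested genes known as Wnt targets, TNF + IFN in si-control raised 5, led by Mfsd2a (2.21 ± 0.70) and Cd44 (1.16 ± 0.16), and lowered 9, led by Sox17 (-4.51 ± 0.69) and Prox1 (-3.92 ± 1.24). The share raised was near the 23.5% of all genes, and 21.6% of all genes were lowered. Sox17 and Prox1 are EC fate factors and many genes of this list respond to other pathways too. With si-dnmt the list had 2 higher and 2 lower without cytokine, 1 and 2 with TNF, 1 and 1 with IFN and 0 and 2 with TNF + IFN, where 8.97% to 10.8% of all genes were higher and 8.72% to 9.59% lower. The Notch ligand Jag1 was higher without cytokine (1.28), with TNF (0.47) and with IFN (0.84), and Mfsd2a without cytokine (2.18). Bambi was lower with TNF (-0.66), IFN (-0.85) and TNF + IFN (-1.14). Nrarp was lower without cytokine (-1.09) and with TNF (-1.32), Ccdc80 without cytokine (-0.47) and Slc2a1 with TNF + IFN (-0.78).

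How the counting treated strand is not given in the sources used here. Reads of members that share exon bases with another annotated gene are therefore uncertain. In GENCODE M21 this holds for Wnt5a, Wnt7b, Wnt11, Fzd5, Fzd6, Rspo3, Sfrp2, Axin2, Ctnnb1, Lef1 and Tcf7l1. The overlapping genes of Wnt11 and Rspo3 had 0 counts in every library, those of Axin2, Fzd5 and Tcf7l1 at most 3, that of Wnt5a at most 23, Ulk4 beside Ctnnb1 at most 48 and that of Fzd6 at most 38.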

How the data were processed

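Counts of 32 bulk RNA-seq libraries (4 replicates in each of 8 groups, described as biological replicates) were analysed. The authors deposited raw counts per gene, 1 table per library and 1 merged by symbol, with no normalization. Cutadapt 4.9, FastQC 0.12.1, MultiQC 1.27.1, featureCounts and DESeq2 are named in the submitters' processing notes. Aligner, build, annotation and strand setting were not given in the sources used here. Total counts were 17362546 to 33500030 per library (median 20859668), and low members are limited by counting error.

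The 54532 gene rows were read from the library tables, which equalled the merged table with 0 cells differing, and each of the 55 members had 1 identifier. Members were low or silent where edgeR's filterByExpr (minimum count 10) dropped them, and silent at a floor of 3 counts or fewer in every library. The 15254 genes kept were scaled by TMM (0.880 to 1.09) and fitted over 8 group means in edgeR 4.0.16 (R 4.3.3). Contrasts were tested by two-sided quasi-likelihood F tests with Benjamini-Hochberg adjustment over all genes, called at an adjusted p under 0.05. SE is the log2 fold change divided by the root of F. CPM is mean ± SD (n = 4) on the TMM scale, per kb where genes are compared, with exon lengths from GENCODE M21. Ratios carry 95% exact Poisson intervals, and a group at 0 was set to 3 counts per library for bounds.

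Libraries with the same replicate number were compared between groups. Over 112 pairs of groups and numbers the correlation of deviations from group means was 0.297 to 0.617. It was highest for the same number in 70 of the 112. Within groups the correlation was 0.280 to 0.474 for replicates 1 and 2, 0.254 to 0.498 for replicates 3 and 4, and -0.781 to -0.612 for replicates 1 and 3. The split into these sets alone can raise the same-number correlations, so pairing by number was not shown. The number was also fitted as a block, which takes up the split as well, although the labels state no pairing. No replicate pair agreed within sampling noise (chi-square per degree of freedom 3.63 or more over 48 pairs). Alternatives were RLE scaling, DESeq2 1.42.0, no filter, the block, each replicate set alone, leaving out each library, and floors of 0 and 10 counts. The test was also run on simulated counts drawn independently for each library, without the replicate sets. That check does not cover data split into such sets.

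All members are named. Values in every library are given for members called the same way in at least 3 of 4 siRNA contrasts and for the 3 largest calls of each cytokine contrast in si-control. Axin2 and some groups of Fzd6, Ctnnb1, Lgr4, Axin1, Wnt7b, Fzd2 and Fzd4 were added after their values were seen. Of the pathway lists, up to 2 rises and 2 falls are named in the siRNA contrasts and in TNF + IFN of si-control. Members and lists were chosen with earlier results of these data known. Promoters are from RefSeq (GRCm38.p6).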

Additional observations from a re-analysis of the deposited data

Results flagged for a closer look

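In 78 groups of 4 libraries among the 10 members shown per library, 5 held 1 library far from the other 3 by Dixon's ratio, about the number that chance gives at 1 in 20. Wnt11 was 0.132 CPM in si-control replicate 3 and 0 in the other 3. Fzd5 was 21.5 CPM in si-dnmt replicate 2 beside 25.0 to 25.7. Dkk2 was 0.185 CPM in si-control + TNF + IFN replicate 3 beside 0.0480 to 0.0529, which is 3 counts against 1. Rspo3 was 1.76 CPM in si-control + TNF replicate 1 beside 0.844 to 0.995. Axin2 was 0.892 CPM in si-dnmt + TNF replicate 2 beside 0.617 to 0.646.

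In the fit with the replicate block, the response to TNF + IFN differed between the siRNAs for 3 members by a test of the difference, at a log2 value of -0.57 for Fzd4, 0.48 for Fzd6 and 0.38 for Ctnnb1. In the same fit the siRNA effect on Axin2 differed between TNF and IFN by 3.15. None of these 4 passed without the block.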

How the results depend on the processing

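Of 100 member calls in the siRNA and cytokine contrasts, 100 passed with RLE scaling and 100 with the replicate block, 99 with DESeq2, 89 without the low-count filter, 88 in replicates 1 and 2 alone and 89 in replicates 3 and 4 alone. Leaving out 1 library kept 712 of 800 calls, and no setting turned a call's direction. The replicate block changed no other member call than those named in the report. It added calls in each siRNA contrast: 7 members without cytokine in place of 4, 15 with TNF in place of 9, 10 with IFN in place of 5 and 12 with TNF + IFN in place of 5. It also gave 14 in place of 5 for IFN in si-dnmt, and 3 in place of 0 for the interaction with TNF + IFN. The difference of the siRNA effects on Axin2, added after seeing the data, was 3.15 in both fits. Replicates 1 and 2 alone gave 8 members without cytokine, 8 with IFN, 12 for IFN in si-dnmt, and 1 and 4 in the interactions with TNF and with TNF + IFN. Replicates 3 and 4 alone gave 9, 10, 10, 4 and 2 for the same comparisons, and 8 for si-dnmt with TNF + IFN. Without the filter 2 members were called for si-dnmt with TNF + IFN. The cause of these shifts was not tested.

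Leaving out 1 library gave 5 to 8 members for si-dnmt with TNF (5 without si-control + TNF replicate 2 or si-dnmt + TNF replicate 2 or 4). It gave 2 to 5 for si-dnmt with TNF + IFN (2 without si-control + TNF + IFN replicate 1, 3 without its replicate 2 or si-dnmt + TNF + IFN replicate 1). It gave 3 to 5 for IFN in si-dnmt (3 without si-dnmt replicate 2). The silent members numbered 2 at a floor of 0 counts and 26 at a floor of 10, so the number called silent depends on the floor. With 3 counts allowing up to 0.172 CPM, changes of the silent members could not be measured, and the low members were not tested.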
